A study of Mus musculus with 9 samples.

Results

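The Toll-like receptor genes of mouse splenic type 2 conventional dendritic cells (cDC2s) are described here in 3 genotypes. The members were chosen by name, and 10 of the 14209 genes in the count table are covered: Tlr1, Tlr2, Tlr3, Tlr4, Tlr6, Tlr7, Tlr9, Tlr11, Tlr12 and Tlr13. All 10 passed the filter on low counts that left 12043 genes for testing. RNA was sequenced from splenic cDC2s of C57BL/6 mice, with 3 libraries per genotype. The Gα13-deficient libraries came from CD11c-Cre Gna13 fl/fl mice, in which Cre acts in cells that use the CD11c promoter, dendritic cells and other CD11c-expressing leukocytes alike. Their genotype label reads "Adgre5-/- and CD11c-cre x Gna13fl/f" and so also names the gene of CD97. The CD97-deficient libraries are labelled CD97 KO and the series calls the mice Adgre5-/-, a germline loss. The WT libraries are labelled WT, and the labels do not say whether those mice carried Cre or the floxed allele. They also leave out the age and sex of the mice, the sort, and whether each library came from its own mouse. The p-values thus rest on a spread between libraries that may be technical, at least in part. The Gα13-deficient and WT groups held libraries with a female and with a male pattern of sex-linked genes (below), so each of these groups held different mice.

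Toll-like receptors are transmembrane sensors of microbial molecules. TLR1, TLR2, TLR4 and TLR6 sit at the cell surface, where TLR2 pairs with TLR1 or TLR6 to detect bacterial lipopeptides and TLR4 detects lipopolysaccharide. TLR3, TLR7, TLR9, TLR11, TLR12 and TLR13 signal from endosomes: TLR3 detects double-stranded RNA, TLR7 single-stranded RNA, TLR9 unmethylated CpG DNA, TLR13 bacterial ribosomal RNA, and TLR11 with TLR12 the profilin of Toxoplasma and related parasites. All of them except TLR3 signal through the adaptor MyD88, while TLR3 and TLR4 use the adaptor TRIF, and in dendritic cells the signal leads to cytokine release and maturation. Gα13 is a subunit of a heterotrimeric G protein, and CD97 belongs to the adhesion family of G protein-coupled receptors.

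The libraries held 5679946 to 13904646 counts. The 10 receptor genes held 0.0977 to 0.102% of all counts in Gα13-deficient libraries, 0.0961 to 0.0988% in CD97-deficient libraries and 0.11 to 0.122% in WT libraries. Gna13 had 114, 96.8 and 91.7 CPM (counts scaled to library size with TMM factors, as throughout) in Gα13-deficient libraries, 227, 217 and 246 CPM in CD97-deficient libraries and 227, 228 and 186 CPM in WT libraries. Cd97, the older symbol of Adgre5, had 1150, 1220 and 1020 CPM in Gα13-deficient libraries, 726, 840 and 438 CPM in CD97-deficient libraries and 1510, 899 and 1300 CPM in WT libraries. Gna13 was thus lowest in the libraries named for its loss, while Cd97 transcripts remained in the CD97-deficient libraries and its difference from WT did not pass the test (log2 fold change -0.89 ± 0.278, adjusted p = 0.103, edgeR quasi-likelihood test). The 14 cDC2 markers summed to 21100 to 23100 CPM in Gα13-deficient, 20100 to 20800 CPM in CD97-deficient and 21900 to 22900 CPM in WT libraries, and all 14 were above 0 in every library. Cd74 and H2-Ab1, at means of 11500 and 5700 CPM in WT libraries, made up most of this sum, so it says little about the others. Of the 14, 10 had a negative log2 fold change in Gα13-deficient and 13 in CD97-deficient against WT. Cd209a averaged 165 CPM in Gα13-deficient, 101 CPM in CD97-deficient and 322 CPM in WT libraries, without passing the test (adjusted p = 0.32 and 0.128, edgeR). Xist and the Y-linked genes gave all 3 CD97-deficient libraries a female pattern, whereas the Gα13-deficient and the WT group each held 1 female-pattern library (replicate 2) and 2 male-pattern libraries. Sex pattern and genotype are therefore partly confounded in every comparison that uses the CD97-deficient group.

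Sequences of 8 of the 10 genes' start sites were found in a RefSeq promoter table (GRCm38.p6, 250 bases before to 50 after the start). They were searched on both strands for PU.1 (GAGGAAG), AP-1 (TGANTCA), an interferon regulatory factor pattern (GAAA followed after any 2 bases by GAAA, called IRF here) and an ETS core (CCGGAAG). The windows of Tlr11 and Tlr6 are shown because both genes were lower in Gα13-deficient cDC2s, and the letters in capitals are motif matches.
Tlr11, chr14:50357664-50357963, plus strand: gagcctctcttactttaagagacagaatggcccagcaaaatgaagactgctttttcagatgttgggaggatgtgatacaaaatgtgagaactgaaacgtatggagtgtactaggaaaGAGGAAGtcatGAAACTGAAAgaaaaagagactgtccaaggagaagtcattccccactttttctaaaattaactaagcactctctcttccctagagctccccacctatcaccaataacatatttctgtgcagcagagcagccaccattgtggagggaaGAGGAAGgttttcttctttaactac
Tlr6, chr5:64959117-64959416, minus strand: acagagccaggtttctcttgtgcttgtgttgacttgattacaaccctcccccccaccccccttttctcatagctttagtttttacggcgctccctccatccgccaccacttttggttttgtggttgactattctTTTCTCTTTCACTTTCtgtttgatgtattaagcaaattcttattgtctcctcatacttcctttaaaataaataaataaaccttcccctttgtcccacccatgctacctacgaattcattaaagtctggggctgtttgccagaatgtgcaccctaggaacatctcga
The Tlr11 window held PU.1 matches starting at positions -133 and 25 and an IRF match at -122 relative to the start site. The Tlr6 window held IRF matches at -116 and -110, which overlap each other and lie on the opposite strand, while a second annotated Tlr6 start held none of the 4 motifs. Matches to PU.1 also lay in the windows of Tlr1, Tlr9 and Tlr13, an AP-1 match in that of Tlr9 and an ETS core match at a second start of Tlr1, and the windows of Tlr2, Tlr3 and Tlr12 held none. Of all 32851 promoter windows of the same length, 13.6% held PU.1, 7.81% AP-1, 3.44% IRF and 8.86% the ETS core. These are letter matches only, and no binding was measured. Tlr4 and Tlr7 were not in the table.

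Tlr1 and Tlr6 lie side by side on the minus strand of chromosome 5 (64924679 to 64933563 and 64952031 to 64960097, mm10, GENCODE M21), and part of their coding sequence is identical. This bears on their values because reads from the shared stretch cannot be assigned to either gene. The longest identical run, coding bases 1468 to 1696 of Tlr1 and 1507 to 1735 of Tlr6, has 229 bases.
Tlr1 and Tlr6 shared run: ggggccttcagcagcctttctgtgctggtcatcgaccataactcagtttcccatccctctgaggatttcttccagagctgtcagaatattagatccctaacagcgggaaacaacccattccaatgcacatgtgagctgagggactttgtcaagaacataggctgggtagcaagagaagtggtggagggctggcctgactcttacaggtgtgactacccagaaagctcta
Of all 50-base windows in the transcripts, 15.4% for Tlr1 and 12.3% for Tlr6 were shared with another gene, 454 of them between the pair. The labels do not say how such reads were counted, so the values of Tlr1 and Tlr6 are uncertain to that extent. The antisense gene Gm45542 overlaps 381 exon bases of Tlr3, and the labels do not say that strand was used in counting, so Tlr3 counts could include its reads. Windows shared with another gene made up 0.216% for Tlr4 and 0 for the other 6 genes.

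Divided by the exon length of each gene, the levels spanned a wide range, with Tlr1, Tlr9 and Tlr13 at the top and Tlr12 at the bottom in every genotype. In WT libraries, Tlr1 averaged 89.6 ± 2.32 CPM per kilobase (SD, n = 3 here and below), Tlr9 71 ± 5.6 and Tlr13 68.1 ± 8.7. Next in WT came Tlr7 at 39 ± 5.55, Tlr11 at 21.7 ± 3.66, Tlr2 at 12.1 ± 0.92 and Tlr6 at 8.23 ± 1.26 CPM per kilobase. Tlr3 at 4.51 ± 0.132, Tlr4 at 2.81 ± 0.7 and Tlr12 at 0.621 ± 0.329 CPM per kilobase closed the WT order. Among neighbours in that order, only Tlr9 and Tlr13 had overlapping values in WT libraries. In Gα13-deficient libraries Tlr1 (74.2 ± 7.9 CPM per kilobase) overlapped Tlr9 (68.7 ± 7.37), which overlapped Tlr13 (63 ± 2.66), and Tlr11 (12.3 ± 3.33) overlapped Tlr2 (11.8 ± 1.76). In CD97-deficient libraries Tlr2 (11 ± 0.537 CPM per kilobase) and Tlr11 (10.7 ± 0.982) overlapped with Tlr2 the higher mean, and Tlr9 and Tlr13 overlapped, as did Tlr3, Tlr4 and Tlr12 with their neighbours. Tlr11 thus lay above Tlr2 in every WT library and overlapped it in both knockouts.

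**Figure D1:**
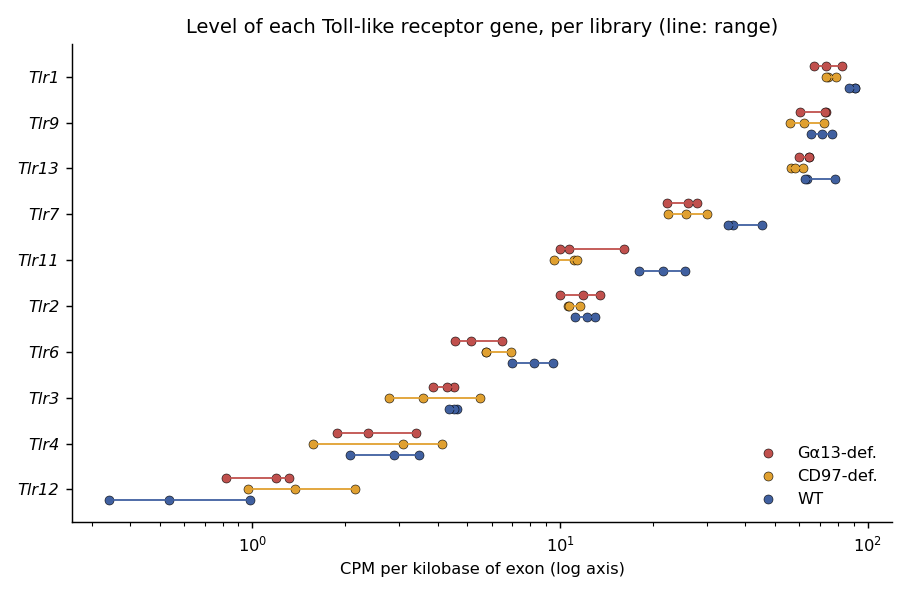
CPM per kilobase of exon (horizontal log axis) of each Toll-like receptor gene, ordered by the WT mean, with a point per library and a line over the range of each group (Gα13-deficient, CD97-deficient and WT, 3 libraries each). Tlr1, Tlr9 and Tlr13 lie highest in all groups, and the WT points of Tlr7, Tlr11 and Tlr6 lie to the right of both knockouts.

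Summed over the 10 genes, the level was 274, 272 and 260 CPM per kilobase in Gα13-deficient libraries, 263, 260 and 256 in CD97-deficient libraries and 341, 303 and 309 in WT libraries. Every knockout library lay below every WT library in this sum. The endosomal receptors took 62.7 to 67.6% of the sum in Gα13-deficient, 62.2 to 64.4% in CD97-deficient and 62.4 to 66% in WT libraries, so these ranges overlapped. The share of Tlr7 in the sum was 8.2 to 10.7% in Gα13-deficient, 8.75 to 11.5% in CD97-deficient and 11.4 to 13.3% in WT libraries. In bulk samples, fewer cells that express a gene and less RNA per cell cannot be told apart.

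Set against WT, the clearest differences among the receptors were lower Tlr11 and lower Tlr7 in both knockouts, with lower Tlr6 in Gα13-deficient cDC2s. In Gα13-deficient against WT libraries 3 of the 10 genes passed an adjusted p of 0.05, all lower, where 11.3% of all tested genes were called and 5.46% were called lower. In CD97-deficient against WT libraries 2 of the 10 passed, both lower, against 8.49% of all tested genes called and 3.68% called lower. The median log2 fold change over the 10 genes was -0.14 for Gα13-deficient and -0.20 for CD97-deficient against WT, beside medians of -0.0079 and -0.0019 over all tested genes. The 14 cDC2 markers had a median of -0.18 in each of these comparisons, so a shift of this size was not particular to the receptors. The CPM of the groups did not overlap, with the knockout lower, for 4 genes in Gα13-deficient against WT (Tlr1, Tlr6, Tlr7 and Tlr11) and for 5 in CD97-deficient against WT (those and Tlr13), where 14.0% and 13.5% of all tested genes separated in that direction. Both comparisons use the same WT libraries.

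Among the endosomal receptors, Tlr11 (chromosome 14, 50357914 to 50363663, plus strand), the profilin sensor, had the lowest fold changes in both comparisons with WT. It had 52.7, 34.9 and 32.8 CPM in Gα13-deficient libraries, 36.2, 31.2 and 37.2 CPM in CD97-deficient libraries and 83.2, 59.3 and 71 CPM in WT libraries. All 6 knockout libraries lay below all 3 WT libraries, with Gα13-deficient replicate 1 the nearest to them. Tlr11 fell in Gα13-deficient cDC2s (log2 fold change -0.83 ± 0.177, adjusted p = 0.0103, edgeR quasi-likelihood test) and in CD97-deficient cDC2s (-1.03 ± 0.179, adjusted p = 0.00472). Leaving out any 1 of the 9 libraries kept both calls, with adjusted p of at most 0.0466 for Gα13-deficient and 0.0243 for CD97-deficient against WT. With the sex pattern as a term the CD97-deficient difference was -0.80 (adjusted p = 0.0664). Among female-pattern libraries alone it was -0.75, given as an effect size only because that fit holds a single WT library. Among male-pattern libraries alone the Gα13-deficient difference was -0.87 (adjusted p = 0.0524).

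Tlr12, the partner of Tlr11 in profilin detection, was counted only 10 to 61 times per library. It had 4.2, 2.61 and 3.78 CPM in Gα13-deficient libraries, 4.38, 3.08 and 6.82 CPM in CD97-deficient libraries and 1.09, 3.13 and 1.7 CPM in WT libraries. Its values were highest in the knockouts but WT replicate 2 overlapped both of them, and neither difference passed the test (log2 fold change 0.92 ± 0.434, adjusted p = 0.196 for Gα13-deficient, and 1.33 ± 0.421, adjusted p = 0.0645 for CD97-deficient, edgeR). Without WT replicate 2, Tlr12 was called higher in CD97-deficient libraries (adjusted p = 0.0285). The level of Tlr11 over that of Tlr12, both per kilobase, was 12.2, 13 and 8.42 in Gα13-deficient, 8.03, 9.84 and 5.3 in CD97-deficient and 74, 18.4 and 40.6 in WT libraries. All 6 knockout ratios lay under the lowest WT ratio, but the denominators rest on few counts.

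Tlr7 (chromosome X, 167304929 to 167330558, minus strand), which detects single-stranded RNA, had 107, 91.1 and 114 CPM in Gα13-deficient libraries, 123, 105 and 91.5 CPM in CD97-deficient libraries and 185, 149 and 144 CPM in WT libraries. Again no knockout library reached the lowest WT library. Tlr7 fell in Gα13-deficient cDC2s (log2 fold change -0.61 ± 0.129, adjusted p = 0.00814, edgeR quasi-likelihood test) and in CD97-deficient cDC2s (-0.58 ± 0.129, adjusted p = 0.0146). The Gα13-deficient call held without any 1 library (adjusted p of at most 0.0425), while the CD97-deficient call was lost without CD97-deficient replicate 3 (adjusted p = 0.0796) and without WT replicate 1 (adjusted p = 0.0581). Tlr7 is X-linked and in human escapes X inactivation in part of the cells, so its values by sex pattern stand beside the result: the female-pattern library had 91.1 CPM against 107 and 114 CPM in the male-pattern libraries among Gα13-deficient libraries, and 149 CPM against 185 and 144 CPM among WT libraries. With sex pattern as a term the CD97-deficient difference of Tlr7 was -0.44 (adjusted p = 0.17), and among female-pattern libraries alone, with a single WT library, it was -0.48. The Gα13-deficient difference of Tlr7 among male-pattern libraries alone was -0.58 (adjusted p = 0.061).

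The remaining endosomal receptors did not pass the test in either comparison with WT. Tlr9, the CpG DNA receptor, had 255, 252 and 209 CPM in Gα13-deficient libraries, 194, 250 and 215 CPM in CD97-deficient libraries and 247, 227 and 266 CPM in WT libraries, and the groups overlapped (adjusted p = 0.814 for Gα13-deficient and 0.363 for CD97-deficient against WT, edgeR). Tlr13, also X-linked, had 278, 258 and 278 CPM in Gα13-deficient libraries, 265, 243 and 250 CPM in CD97-deficient libraries and 336, 274 and 270 CPM in WT libraries. The CD97-deficient values of Tlr13 lay just under all WT values without passing the test (log2 fold change -0.22 ± 0.0924, adjusted p = 0.162), and the Gα13-deficient ones overlapped WT (-0.11 ± 0.0922, adjusted p = 0.473). Tlr3, which detects double-stranded RNA, had 20.2, 23.5 and 22.3 CPM in Gα13-deficient, 18.7, 14.5 and 28.6 CPM in CD97-deficient and 24.1, 23.6 and 22.8 CPM in WT libraries. The CD97-deficient libraries held both the lowest and the highest Tlr3 value of the 9 (adjusted p = 0.783 for Gα13-deficient and 0.621 for CD97-deficient against WT, edgeR).

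**Figure D2:**
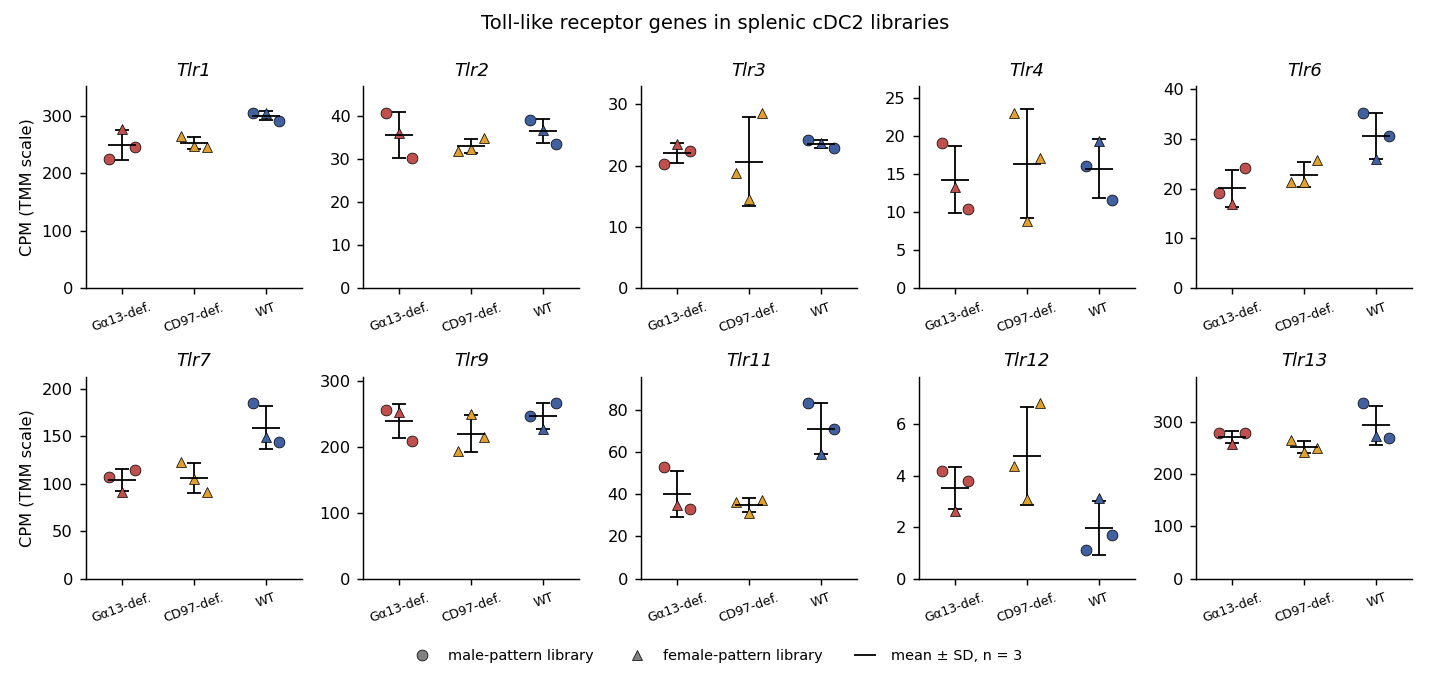
CPM on the TMM scale (vertical axes, from 0) of each Toll-like receptor gene in the Gα13-deficient, CD97-deficient and WT libraries, with circles for male-pattern and triangles for female-pattern libraries and bars for the mean and SD (n = 3). In Tlr7, Tlr11, Tlr6 and Tlr1 every knockout library lies below every WT library, whereas Tlr2, Tlr3, Tlr4, Tlr9 and Tlr12 overlap between groups.

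Among the cell surface receptors of the member list, Tlr6 was the only one to pass the test, in Gα13-deficient against WT. Tlr6, which forms the receptor for diacylated lipopeptides with TLR2, had 19.1, 17 and 24.1 CPM in Gα13-deficient libraries, 21.4, 21.4 and 25.8 CPM in CD97-deficient libraries and 35.3, 26 and 30.7 CPM in WT libraries. WT replicate 2, the lowest WT library, lay only just above the highest knockout library. Tlr6 fell in Gα13-deficient cDC2s (log2 fold change -0.59 ± 0.165, adjusted p = 0.0337, edgeR quasi-likelihood test), and in CD97-deficient cDC2s its difference of -0.42 ± 0.165 did not pass (adjusted p = 0.124). The Gα13-deficient call was lost without Gα13-deficient replicate 1 (adjusted p = 0.101), Gα13-deficient replicate 2 (0.122), WT replicate 1 (0.151) or WT replicate 3 (0.0668), and also in a fit of only those 2 groups (0.0603), with the macrophage marker level as a term (0.0563) and among male-pattern libraries alone (0.12).

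Tlr1, the TLR2 partner for triacylated lipopeptides and the most abundant receptor per kilobase, had 224, 276 and 245 CPM in Gα13-deficient libraries, 264, 248 and 245 CPM in CD97-deficient libraries and 304, 305 and 291 CPM in WT libraries. All knockout libraries were below all WT libraries, by a small margin, and neither difference passed the test (log2 fold change -0.27 ± 0.0858, adjusted p = 0.0547 for Gα13-deficient, and -0.25 ± 0.0858, adjusted p = 0.0888 for CD97-deficient, edgeR). DESeq2 called the Gα13-deficient difference (adjusted p = 0.0362). Tlr2 had 40.8, 36 and 30.2 CPM in Gα13-deficient, 31.8, 32.4 and 34.9 CPM in CD97-deficient and 39.2, 36.7 and 33.6 CPM in WT libraries. These values overlapped (log2 fold change -0.05 ± 0.131, adjusted p = 0.857 for Gα13-deficient, and -0.15 ± 0.132, adjusted p = 0.522 for CD97-deficient, edgeR).

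Tlr4, the lipopolysaccharide receptor, was low and scattered, with 19, 13.2 and 10.4 CPM in Gα13-deficient libraries, 23, 8.79 and 17.1 CPM in CD97-deficient libraries and 16, 19.3 and 11.6 CPM in WT libraries. The spread inside each group exceeded the difference between groups (log2 fold change -0.17 ± 0.337, adjusted p = 0.788 for Gα13-deficient, and 0.07 ± 0.333, adjusted p = 0.923 for CD97-deficient against WT, edgeR). The summed level of the 15 macrophage markers in the table varied in the same libraries, at 956, 1150 and 773 CPM in Gα13-deficient, 2000, 605 and 1280 CPM in CD97-deficient and 763, 1560 and 558 CPM in WT libraries. Tlr4 was highest in CD97-deficient replicate 1 and WT replicate 2, the libraries with the highest marker sums, and lowest in CD97-deficient replicate 2. The order did not match throughout. Gα13-deficient replicate 1 had 19 CPM of Tlr4 at a sum of 956 CPM, above replicate 2 with 13.2 CPM at 1150 CPM. The lowest sum, 558 CPM, was that of WT replicate 3.

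**Figure D3:**
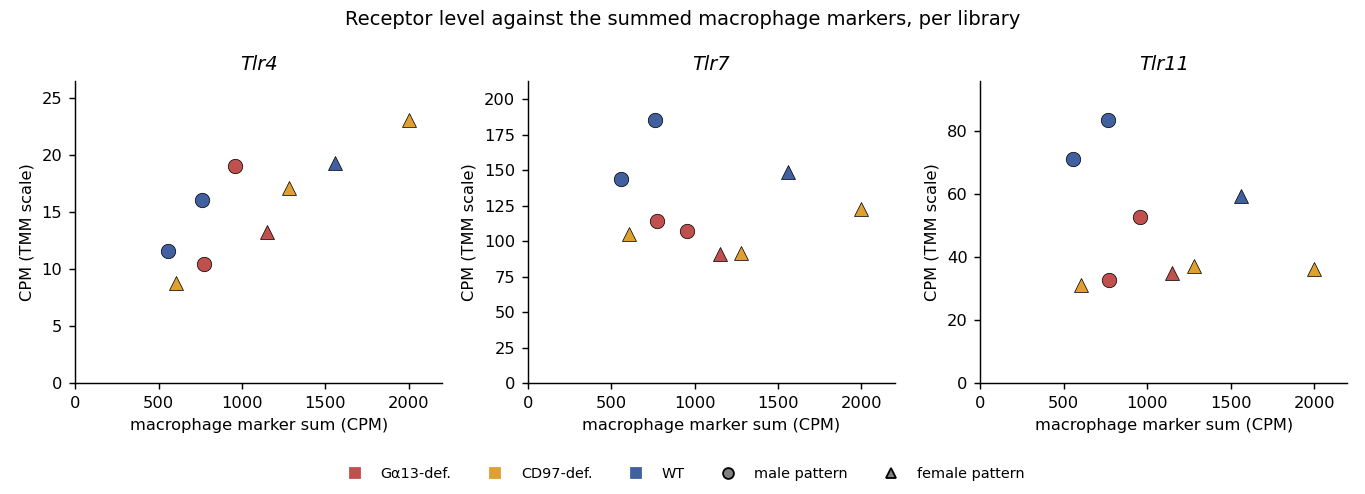
CPM of Tlr4, Tlr7 and Tlr11 (vertical axes, from 0) against the summed CPM of 15 macrophage markers (horizontal axes), with a point per library coloured by group and circles for male-pattern and triangles for female-pattern libraries. Tlr4 is highest in the libraries with sums of 2000 and 1560 CPM, closely followed by a Gα13-deficient library at 956 CPM. For Tlr7 and Tlr11 every WT library lies above every knockout library, but a single WT library, at 1560 CPM, has a high sum.

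Markers of other cells are given beside the lower receptors. With the macrophage marker level as a term, Tlr11 was -0.81 (adjusted p = 0.0194) and Tlr7 -0.61 (adjusted p = 0.014) in Gα13-deficient against WT, and -0.99 (adjusted p = 0.0209) and -0.57 (adjusted p = 0.0475) in CD97-deficient against WT, in edgeR fits. Of the 15 macrophage markers, 10 had a positive log2 fold change in Gα13-deficient against WT (median 0.20) and 14 in CD97-deficient against WT (median 0.90). The single call among the 15 was Emr1, which encodes F4/80, lower in Gα13-deficient (-0.73, adjusted p = 0.00189) and in CD97-deficient cDC2s (-0.62, adjusted p = 0.00675). Plasmacytoid dendritic cells use TLR7 and TLR9 heavily, and 11 of their markers summed to 551 to 665 CPM in Gα13-deficient, 533 to 588 CPM in CD97-deficient and 460 to 606 CPM in WT libraries. Of those 11, 10 had a positive log2 fold change in Gα13-deficient (median 0.79) and 4 in CD97-deficient against WT (median -0.13). Tcf4, Cox6a2 and Ly6c2 were called higher in Gα13-deficient against WT. The 9 cDC1 markers summed to 1790 to 1880 CPM in Gα13-deficient, 1910 to 2080 CPM in CD97-deficient and 1730 to 1940 CPM in WT libraries, most of it from Wdfy4 (means of 1520, 1710 and 1650 CPM). The median log2 fold change of the 9 was 0.32 in Gα13-deficient and 0.39 in CD97-deficient against WT. Among them Xcr1 (1.24, adjusted p = 0.0463, and 1.36, adjusted p = 0.0391) and Naaa (0.83, adjusted p = 0.00091, and 0.51, adjusted p = 0.0224) rose in both, and Batf3 fell in Gα13-deficient cDC2s (-0.44, adjusted p = 0.0302). The 8 monocyte and neutrophil markers found summed to 201 to 233 CPM in Gα13-deficient, 194 to 230 CPM in CD97-deficient and 108 to 196 CPM in WT libraries, with Cx3cr1 (1.54, adjusted p = 0.00678) and Ly6c2 (2.08, adjusted p = 0.0383) higher in Gα13-deficient and Plac8 higher in CD97-deficient cDC2s (0.45, adjusted p = 0.0339). B cell markers summed to at most 115 CPM and T and NK cell markers to at most 37.3 CPM in every library. Of 8 B cell markers, 3 had a positive log2 fold change in Gα13-deficient (median -0.26) and 6 in CD97-deficient against WT (median 0.41). The single call among them was Cr2, lower in Gα13-deficient cDC2s (-1.20, adjusted p = 0.00921). Of 4 tested T and NK cell markers, 3 were positive in each comparison (medians 0.62 and 0.45), with none called. Among the cDC2 markers, Itgax (0.34, adjusted p = 0.0116) and Itgam (0.42, adjusted p = 0.00205) were higher and Cd4 (-0.66, adjusted p = 0.0464), Irf4 (-0.37, adjusted p = 0.0143) and Esam (-0.53, adjusted p = 0.0466) lower in Gα13-deficient against WT. In CD97-deficient against WT, Cd4 was -0.67 (adjusted p = 0.0526). The part of these markers in the receptor differences was not tested beyond the fit named.

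Between the knockouts, Gα13-deficient against CD97-deficient, none of the 10 receptor genes was called by edgeR or DESeq2. None had an unadjusted p under 0.05 in edgeR. Over all tested genes, edgeR called 5, or 0.0415%, and 766 had an unadjusted p under 0.05. The log2 fold change was 0.20 ± 0.183 for Tlr11, -0.03 ± 0.129 for Tlr7, -0.16 ± 0.168 for Tlr6 and -0.42 ± 0.351 for Tlr12 (adjusted p = 0.922, 0.99, 0.928 and 0.918). The median over the 10 genes was 0.02, and all 10 overlapped between the knockouts, where 13.1% of all tested genes did not. Tlr6, called against WT in Gα13-deficient libraries alone, thus did not pass the test between the knockouts.

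**Figure D4:**
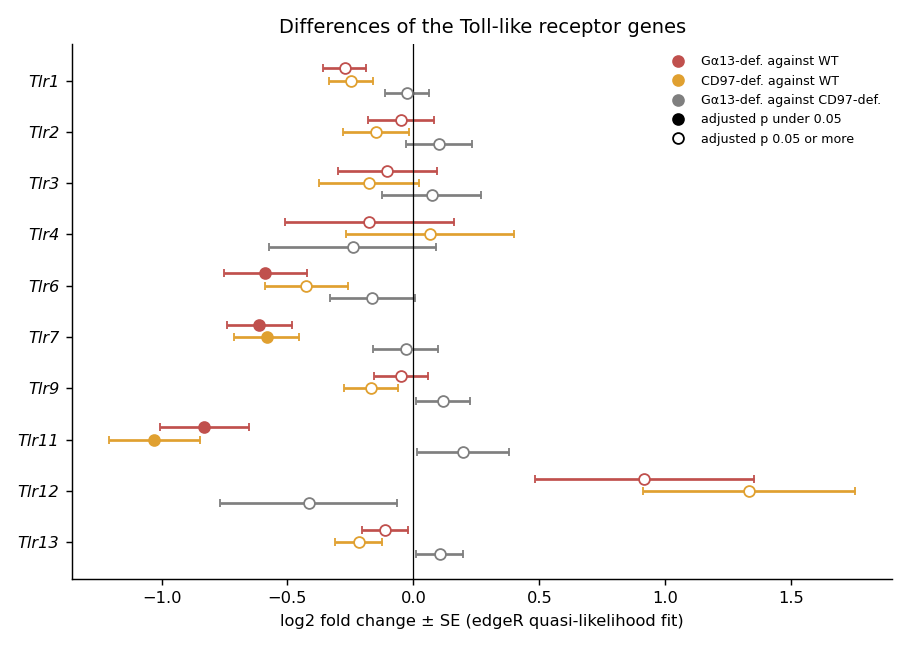
Log2 fold change ± SE from the edgeR quasi-likelihood fit (horizontal axis) of each Toll-like receptor gene for Gα13-deficient against WT, CD97-deficient against WT and Gα13-deficient against CD97-deficient, with filled points where the adjusted p was under 0.05. Tlr11 and Tlr7 are filled in both comparisons with WT and Tlr6 in that of Gα13-deficient libraries, while no point of the comparison between knockouts is filled.

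The table also holds Tlr5 and Tlr8, which the member list leaves out. Tlr5, the flagellin receptor, had 63, 59.8 and 44.1 CPM in Gα13-deficient libraries, 53.4, 55.7 and 48.3 CPM in CD97-deficient libraries and 84.4, 79 and 66.6 CPM in WT libraries, with no overlap between knockouts and WT. Tlr5 fell in Gα13-deficient (log2 fold change -0.48 ± 0.137, adjusted p = 0.0371, edgeR) and CD97-deficient cDC2s (-0.55 ± 0.138, adjusted p = 0.0237). These calls were kept in 3 and 6 of the 9 fits that left out 1 library, with adjusted p of up to 0.133 (without Gα13-deficient replicate 3) and 0.116 (without CD97-deficient replicate 3). With sex pattern as a term the CD97-deficient call of Tlr5 was lost. Over all alternatives the adjusted p of Tlr5 in Gα13-deficient against WT reached 0.186. Tlr8 did not pass the test in Gα13-deficient (0.66 ± 0.498, adjusted p = 0.44) or CD97-deficient cDC2s (-0.24 ± 0.558, adjusted p = 0.827).

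The other genes of the pathway, in 5 lists, had calls in both directions. Their counts stand beside 5.89% of all tested genes called higher and 5.46% called lower in Gα13-deficient against WT, and 4.82% and 3.68% in CD97-deficient against WT. Of 17 tested co-receptors and chaperones, 2 rose and 0 fell in Gα13-deficient against WT (median 0.11), and 0 rose and 1 fell in CD97-deficient against WT (median 0.07). Unc93b1, the chaperone that carries endosomal Toll-like receptors out of the endoplasmic reticulum, averaged 423 CPM in Gα13-deficient, 370 CPM in CD97-deficient and 496 CPM in WT libraries. Its log2 fold change was -0.23 ± 0.0987 in Gα13-deficient against WT, which did not pass (adjusted p = 0.154, edgeR), and it fell in CD97-deficient cDC2s (-0.42 ± 0.099, adjusted p = 0.0182). Cd36, a co-receptor of TLR2 with TLR6, and Hmgb1, a nuclear protein that acts as a danger signal outside the cell, rose in Gα13-deficient cDC2s (1.02 ± 0.312, adjusted p = 0.0487, and 0.41 ± 0.123, adjusted p = 0.044), though neither passed with the replicate block (adjusted p = 0.0695 and 0.056). The lipopolysaccharide co-receptors were low and not called: Cd14 averaged 3.28 CPM in Gα13-deficient, 3.61 CPM in CD97-deficient and 3.48 CPM in WT libraries, and Ly96 averaged 7.25 CPM in Gα13-deficient, 8.74 CPM in CD97-deficient and 6.6 CPM in WT libraries.

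Of 24 adaptors and proximal kinases, 0 rose and 1 fell in Gα13-deficient against WT. In CD97-deficient against WT edgeR called 0, DESeq2 called 1, and 5 had an unadjusted p under 0.05. Tbk1, the kinase that activates IRF3 downstream of TRIF, fell in Gα13-deficient cDC2s (-0.54 ± 0.138, adjusted p = 0.0253, edgeR), with means of 122 CPM against 178 CPM in WT. The shared adaptors were not called: Myd88 was 0.20 (adjusted p = 0.283) in Gα13-deficient and 0.30 (adjusted p = 0.111) in CD97-deficient against WT, and Ticam1, which encodes TRIF, -0.13 (adjusted p = 0.642) and 0.00065 (adjusted p = 0.999). Of 11 transcription factors, 1 rose and 2 fell in Gα13-deficient against WT, and 1 rose and 0 fell in CD97-deficient against WT. Nfkb1, the precursor of the NF-κB subunit p50, rose in both (0.52 ± 0.0839, adjusted p = 0.00154, and 0.44 ± 0.0839, adjusted p = 0.0061), with 681 to 792 CPM in Gα13-deficient, 692 to 744 CPM in CD97-deficient and 479 to 563 CPM in WT libraries. The NF-κB subunits Relb (-0.43 ± 0.122, adjusted p = 0.0348) and Rel (-0.38 ± 0.111, adjusted p = 0.0423) fell in Gα13-deficient cDC2s. Irf5 and Irf7, interferon regulatory factors downstream of MyD88, were not called in either comparison.

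Of 18 negative regulators, 1 rose and 2 fell in Gα13-deficient against WT and 0 rose and 2 fell in CD97-deficient against WT, where DESeq2 called 4 in each comparison. Nfkbiz, an inducible nuclear IκB protein that shapes NF-κB transcription, fell in CD97-deficient cDC2s (-0.76 ± 0.108, adjusted p = 0.00111, edgeR) with 166 to 183 CPM, against 264 to 341 CPM in WT. In Gα13-deficient libraries it had 236 to 296 CPM (-0.20, adjusted p = 0.26), and the difference between the knockouts did not pass in edgeR (0.56 ± 0.108, adjusted p = 0.101) but was called by DESeq2 (adjusted p = 0.00282). Tnip2, which encodes an A20-binding protein, fell in Gα13-deficient (-0.39, adjusted p = 0.0455) and CD97-deficient cDC2s (-0.43, adjusted p = 0.0382). Nfkbie, an inhibitor of NF-κB, fell (-0.49, adjusted p = 0.0189) and Ptpn6, which encodes the phosphatase SHP-1, rose (0.30, adjusted p = 0.0405) in Gα13-deficient cDC2s. Cytosolic sensors, which detect nucleic acids and peptidoglycan fragments without Toll-like receptors, had the most calls of the 5 lists in Gα13-deficient against WT: 5 of 13 fell and 0 rose there (median -0.17), and 1 fell and 0 rose in CD97-deficient against WT (median -0.23). Nod2, the sensor of muramyl dipeptide, had 11.5 to 13.3 CPM in Gα13-deficient and 14.9 to 22.3 CPM in CD97-deficient libraries, against 21.7 to 30 CPM in WT libraries. It fell in Gα13-deficient cDC2s (-1.05 ± 0.181, adjusted p = 0.00228), as did Nlrp1b (-0.69, adjusted p = 0.0032), Aim2 (-0.34, adjusted p = 0.0155) and Ifih1 (-0.32, adjusted p = 0.0185), sensors for inflammasomes, cytosolic DNA and long double-stranded RNA. Nlrc4, an inflammasome protein that responds to flagellin, fell in both knockouts (-0.68 ± 0.126, adjusted p = 0.0036, in Gα13-deficient and -0.54 ± 0.126, adjusted p = 0.018, in CD97-deficient cDC2s).

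Of the 19 calls of these pathway genes against WT, 6 held in all 9 fits that left out 1 library: Nfkb1 in both comparisons, Nfkbiz in CD97-deficient, and Nod2, Nlrp1b and Nlrc4 in Gα13-deficient against WT. Of those 6, 4 also held in all other alternatives. For Nfkbiz, the fit of female-pattern libraries alone holds a single WT library, so it gives an effect size only (-0.70). Nfkb1 was lost in CD97-deficient against WT with sex pattern as a term (adjusted p = 0.104), and in Gα13-deficient against WT it stood at 0.05 among male-pattern libraries alone. In CD97-deficient against WT, the sex pattern and macrophage terms ended the calls of Unc93b1 (adjusted p = 0.226 and 0.0771), Tnip2 (0.246 and 0.0894) and Nlrc4 (0.209 and 0.0695). In Gα13-deficient against WT, the replicate block within those 2 groups ended the calls of Cd36 (0.0783), Hmgb1 (0.0716), Tnip2 (0.0531), Ptpn6 (0.0764) and Ifih1 (0.0535). There the macrophage term ended the calls of Rel (0.0692), Hmgb1 (0.0677), Cd36 (0.0547), Tnip2 (0.0636) and Ptpn6 (0.0521). The sex pattern term ended those of Cd36 (0.062) and Tnip2 (0.0512). Among male-pattern libraries alone, only Cd36, Nod2, Nlrp1b and Nlrc4 stayed called. The adjusted p (edgeR) of the others reached 0.469 there, for Ptpn6. The other 13 calls were lost without 1 or more libraries. In those fits that left out 1 library, the adjusted p reached 0.0806 for Unc93b1, 0.135 for Tnip2 and 0.1 for Nlrc4 in CD97-deficient against WT. In Gα13-deficient against WT it reached 0.162 for Hmgb1, 0.144 for Cd36, 0.112 for Tbk1, 0.119 for Relb, 0.141 for Rel, 0.0694 for Nfkbie, 0.167 for Tnip2, 0.145 for Ptpn6, 0.0666 for Aim2 and 0.0767 for Ifih1.

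**Figure D5:**
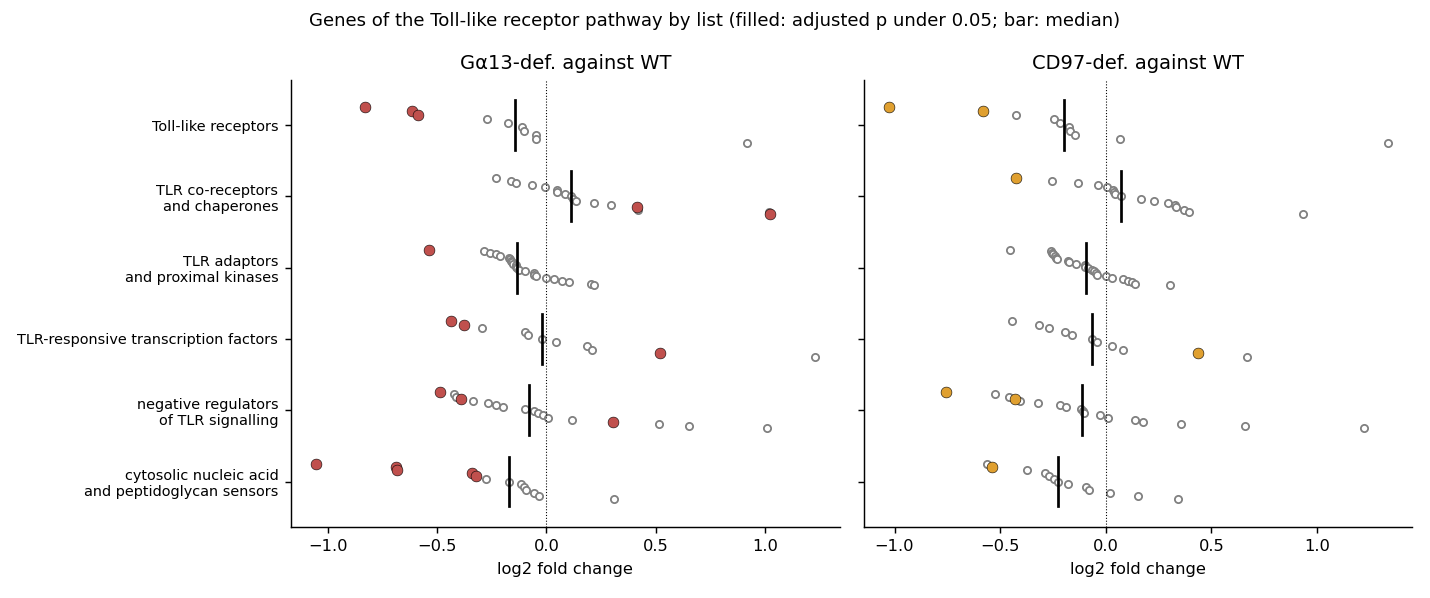
Log2 fold change from the edgeR fit (horizontal axes) of the tested genes in 6 lists of the Toll-like receptor pathway, for Gα13-deficient against WT (left) and CD97-deficient against WT (right), with filled points at an adjusted p under 0.05 and a bar at each list's median. All filled points of the receptors, the adaptors and kinases and the cytosolic sensors are negative, while the other 3 lists hold filled points above and below 0.

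For the 3 called receptors, the genes with the most similar pattern over the 9 libraries were sought by the root mean square difference of gene-centred log2 CPM among 10134 genes. Nearest to Tlr11 were Il1b (0.15) and Tnf (0.16), which encode inflammatory cytokines, where the median over all genes was 0.53. Nearest to Tlr7 were Ddx26b (0.08) and Dab2ip (0.10), with a median of 0.38, and nearest to Tlr6 were E330033B04Rik and A130022J15Rik (0.10 each), with a median of 0.36. These are descriptions over 9 libraries of 3 genotypes that differ in depth, and the nearest of many genes is close by selection.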

How the data were processed

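RNA was sequenced in 9 libraries of splenic cDC2s, 3 each of Gα13-deficient, CD97-deficient and WT mice. The authors deposited whole-number counts per gene symbol, and the submitters' processing notes list STAR, HTSeq, DESeq2 and mm10, with no versions. No gene in the table had a total under 10 counts. Groups and replicate numbers came from the sample titles, and WT columns, which carry other numbers, were matched through the source names. The test was the quasi-likelihood F-test of edgeR 4.0.16 (R 4.3.3, TMM factors, robust estimation, default expression filter, which removed 2166 genes) in 1 fit of all 9 libraries, with p adjusted by Benjamini-Hochberg over 12043 genes and a threshold of 0.05. Standard errors come from the F statistic. CPM is on the TMM scale, and CPM per kilobase divides by the union of exons in GENCODE M21 (mm10). The common biological coefficient of variation was 0.15.

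In simulated counts for CD97-deficient against WT (11997 genes), the test recovered 18 of 67 genes at 1.5-fold, 43 of 67 at 2-fold and 57 of 66 at 4-fold and made 6 false calls. Only these genes were changed, in the CD97-deficient group alone, and no difference in sex or cell mix was simulated. The measured comparison called 1023 genes, so its rates may differ. Named were all 10 receptors, up to 6 called genes per pathway list, Myd88, Ticam1, Unc93b1, Cd14, Ly96, Irf5 and Irf7, and for each called receptor its 2 nearest genes. The members, lists and tests were chosen with earlier results of these data known. Alternatives were other size factors, library totals, no filter, DESeq2 1.42.0, each library left out, a replicate block, only the groups compared, a sex pattern term and, for levels, the longest transcript as length. Added after seeing the data were edgeR's older fit, a macrophage marker term, libraries of 1 sex pattern alone and the block within the groups compared. Same-number libraries of Gα13-deficient and WT mice deviated together, by a correlation above a set limit of 0.1, in 3 of 3 pairs (0.111 to 0.179). For CD97-deficient and WT (-0.301 to 0.0594) and between the knockouts (-0.0731 to 0.0112) they did in 0 of 3. Libraries with different numbers gave -0.12 to -0.0207 for Gα13-deficient and WT. They gave -0.273 to 0.216 for CD97-deficient and WT and -0.0216 to 0.0615 between the knockouts. A value above 0.1 thus also occurred between libraries with different numbers. Replicate 2 was the female-pattern library of both the Gα13-deficient and the WT group, so number and sex pattern are partly confounded there. Whether the numbers mark true pairs was not tested. Intervals here cover the spread between libraries.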

Additional observations from a re-analysis of the deposited data

How the results depend on the processing

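The calls of Tlr11 and Tlr7 in both comparisons with WT were kept under other size factors, library totals, no filter, DESeq2, the block and a fit of only the groups compared. With sex pattern as a term, 0 of the 10 receptors were called in CD97-deficient against WT (213 of all genes in edgeR, where the fit without it called 1023), and female-pattern libraries alone called 1, Tlr11 (192 of all genes). In Gα13-deficient against WT the sex term gave 4 receptors, Tlr1 added, and 1362 genes, while male-pattern libraries alone called 0 (561 of all genes, where all libraries gave 1366). The fits of 1 sex pattern hold fewer libraries, 2 against 2 for male and 3 CD97-deficient with 1 WT and 1 Gα13-deficient for female, and the cause of the lost calls was not tested. The macrophage term left 507 genes called in CD97-deficient against WT. Between the knockouts, the 5 genes called became 54 with DESeq2, 15 with the replicate block in all libraries, 66 with the block in the 2 groups, 49 in the 2 groups alone, 3 with sex pattern and 15 with the macrophage term. Leaving out 1 library gave 768 to 1468, 350 to 1227 and 4 to 27 genes in Gα13-deficient against WT, CD97-deficient against WT and Gα13-deficient against CD97-deficient, and 2 to 3, 1 to 3 and 0 to 0 receptors. The block changed the call of no receptor, and of the pathway genes it ended the calls named beside them and that of Tnip2 in CD97-deficient against WT (adjusted p = 0.0563 within the 2 groups). With library totals, 868 genes were called higher and 531 lower in Gα13-deficient against WT (62% higher, against 51.9% with TMM), and 766 and 341 in CD97-deficient against WT (69.2% against 56.7%), while the median of all genes shifted by 0.038 and 0.050.

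Dividing by the longest transcript moved 8 of 30 levels per kilobase by more than 1 SD. Among the genes reported, signs turned only for those not called. Leaving out 1 library, log2 fold changes ran, in Gα13-deficient against WT, over -0.16 to 0.074 for Tlr2, -0.46 to 0.055 for Tlr4, -0.11 to 0.040 for Tlr9, -0.17 to 0.00060 for Tlr13, -0.10 to 0.25 for Ly96, -0.25 to 0.079 for Ticam1, -0.16 to 0.011 for Irf5 and -0.53 to 0.56 for Cd14. In CD97-deficient against WT they ran over -0.26 to 0.33 for Tlr4, -1.02 to 0.48 for Tlr8, -0.66 to 0.77 for Cd14, -0.035 to 0.041 for Ticam1 and -0.11 to 0.13 for Irf7. Between the knockouts they ran over -0.11 to 0.043 for Tlr1, -0.015 to 0.22 for Tlr2, -0.10 to 0.39 for Tlr3, -0.53 to 0.082 for Tlr4, -0.13 to 0.088 for Tlr7 and -0.051 to 0.34 for Tlr11. The macrophage term turned Tlr9 to 0.0040 and Ly96 to -0.029 in Gα13-deficient against WT, Tlr4 to -0.35, Cd14 to -0.69 and Ticam1 to -0.0083 in CD97-deficient against WT, and Tlr4 to 0.023 between the knockouts. The sex term turned Tlr4 to -0.060, Cd14 to -0.49 and Ticam1 to -0.081 in CD97-deficient against WT, and Tlr1 to 0.063 and Tlr11 to -0.049 between the knockouts. Libraries of 1 sex pattern gave Tlr4 0.031, Cd14 0.54 and Ly96 -0.026 in Gα13-deficient against WT, and Tlr4 -0.21, Cd14 -0.81 and Irf5 0.0052 in CD97-deficient against WT. Ticam1 in CD97-deficient against WT was -0.0055 with RLE size factors, -0.0069 with no filter, -0.0023 in DESeq2 and -0.00019 with the block in 2 groups, where Cd14 in Gα13-deficient against WT was 0.050. The causes were not tested. With 3 libraries a group, receptors that were not called may still differ.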
